A study of Mus musculus with 36 samples.

Results

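Lysosome genes were followed across 9 groups of Bhas 42 cells. These are BALB/c 3T3 mouse fibroblasts into which the v-Ha-ras gene was introduced, a model for chemical transformation. The 41 genes code for lysosomal proteases, for enzymes that degrade glycans and lipids, for membrane proteins, for the calcium channel and proton pump of the organelle, and for the transcription factors that control its genes. They were chosen by name, and a probe was kept if its signal stood well above background on 3 or more of the 4 arrays of a group. All 41 had such a probe, out of 32490 gene names tested, of which 17868 carried a gene symbol. Each of them was well above background on all 36 arrays except the cathepsin Ctsk, which was so on 9 arrays. By role they are 9 proteases, 11 glycan-degrading enzymes, 6 lipid-handling proteins, 7 membrane proteins, 5 channel and pump genes and 3 regulators.

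RNA was measured on 1-colour microarrays, 1 array per sample and 4 samples per group. Cells received the synthetic amorphous silica NM-203 at 1, 2 or 5 µg/cm², diatomaceous earth (DE, another silica material) at 5 µg/cm², or 2% water as their control. The crystalline silica Min-U-Sil 5 was given at 20 µg/cm² and had a 2% water group of its own. The phorbol ester TPA, an activator of protein kinase C used as a tumour promoter in such assays, was given at 0.05 µg/ml, with 0.1% DMSO as control. Exposure began on day 4 after seeding and lasted 48 h, so that cells were collected on day 6. All groups share the line and its oncogene. According to the series text the experiment was done 4 times, yet the labels do not say which arrays belong together, so p-values measure the spread between these samples, which may be technical.

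Lysosomes are acidified by a vacuolar proton pump and break down protein, sugar chains and lipid delivered by endocytosis, phagocytosis and autophagy. Particles taken up by cells end in this compartment, and silica is known for damaging its membrane in macrophages. The factors TFEB and TFE3 enter the nucleus when lysosomes are stressed or nutrients are short, and bind a short palindromic element near the start of many lysosome genes.

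There were 5 slides, of which 1, 2 and 3 were scanned on 1 day and 4 and 5 on a later one. All 10 fibroblast markers were well above background on all 36 arrays, and so were 6 of 10 macrophage, 4 of 6 osteoclast, 3 of 6 epithelial and 1 of 5 endothelial markers. The defining markers Ptprc (leukocytes), Epcam (epithelium) and Tek (endothelium) were so on 0 arrays, while others such as Csf1r, Lyz2, Krt8 and Pecam1 were so on all 36. Over the 9 groups the summed linear level ran from 607 to 1388 for the fibroblast list, 10.6 to 29.3 for the macrophage, 0.978 to 3.65 for the osteoclast, 0.273 to 0.991 for the epithelial and 0.136 to 0.582 for the endothelial list. Levels are log2 signals minus the 75th percentile of the array, and a change is the difference of 2 group means on that scale, given with the standard error (SE) of a limma fit over all 36 arrays. A gene was called changed at a Benjamini-Hochberg adjusted p below 0.05 over all 32490 gene names. The lysosome genes were bright, with a median level of 3.74 against -2.43 for all gene names tested, and 35 of them lay in the brightest 25% of gene names. Shares of calls are therefore given for all gene names and, except in the comparison with a second water group, for that brightest 25%.

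Promoter sequence is shown for 8 members that hold the core element CACGTG, to set beside their expression values. Sequences are from RefSeq (assembly GRCm38.p6), start upstream of the annotated gene start and end before it, and the capitals mark the element, or its longer form TCACGTGA. Both are palindromes, so 1 strand was searched, and each match of the longer form is also a match of the core.
Lamp1 (chr8:13159078-13159160, plus strand): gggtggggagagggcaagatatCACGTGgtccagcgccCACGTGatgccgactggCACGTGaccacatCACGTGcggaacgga
Mcoln1 (chr8:3500426-3500501, plus strand): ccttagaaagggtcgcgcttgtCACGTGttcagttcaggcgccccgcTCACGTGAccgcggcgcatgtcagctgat
Gla (chrX:134601172-134601254, minus strand): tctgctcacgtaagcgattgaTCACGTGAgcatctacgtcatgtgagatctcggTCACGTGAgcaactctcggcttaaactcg
Sgsh (chr11:119355512-119355561, minus strand): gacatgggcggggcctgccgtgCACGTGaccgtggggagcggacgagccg
Atp6v1a (chr16:44139363-44139412, minus strand): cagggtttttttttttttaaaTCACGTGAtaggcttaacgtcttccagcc
Ctsd (chr7:142387898-142387947, minus strand): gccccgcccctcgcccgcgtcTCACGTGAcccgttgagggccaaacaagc
Gaa (chr11:119267801-119267850, plus strand): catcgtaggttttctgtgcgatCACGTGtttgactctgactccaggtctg
Naglu (chr11:101069999-101070048, plus strand): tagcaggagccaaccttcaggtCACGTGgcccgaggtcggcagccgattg
The Lamp1 stretch holds 4 elements, those of Mcoln1 and Gla hold 2 each, and the other 5 hold 1 each. In the 250 bases before and 50 after the gene start, 13 of the 37 members with a promoter entry (35.1%) held CACGTG, against 8.09% of 27025 genes. The longer form TCACGTGA was in 6 of 37 members (16.2%), against 1.12% of genes. A match describes the letters in this window and is not a measured binding site.

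NM-203 at 5 µg/cm² lowered the level of many degradative enzymes and raised 2 members. Of the 41 lysosome genes 21 were called lower and 2 higher than in water, with a median log2 change of -0.32, where all gene names had 0.01. Among all gene names 33.1% were called, 19.1% lower and 14% higher; among the brightest 25% of them 52.6% were called, 22.8% lower and 29.8% higher, against 51.2% and 4.88% of the lysosome genes. The arrays of the 2 groups did not overlap for 21 members, and for 36.1% of all gene names. The calls were unequal between roles: 9 of 11 glycan-degrading enzymes and 6 of 6 lipid-handling proteins fell, against 1 of 9 proteases (Tpp1), 2 of 7 membrane proteins, 3 of 5 channel and pump genes and 0 of 3 regulators. In bulk RNA, a lower share of cells that express a gene and less RNA per cell cannot be told apart.

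The 3 largest falls were of enzymes that cut sugar chains. The lysosomal alpha-mannosidase Man2b1 had levels of 2.19, 2.02, 1.64 and 1.95 in cells with NM-203 at 5 µg/cm², against 3.13, 3.30, 3.02 and 2.99 in water. The ranges did not overlap, and the log2 change was -1.16 ± 0.16 (SE, n = 4 each), a 2.23-fold lower signal with an adjusted p of 4.7e-07. The fucosidase Fuca1 had levels of 2.59, 3.03, 2.65 and 2.90, against 3.77, 3.86, 3.91 and 3.72 in water, again without overlap, and changed by -1.02 ± 0.14 (adjusted p = 4.34e-07). Mannose and fucose residues are parts of the sugar chains of glycoproteins. The sialidase Neu1 stood at 2.87, 2.98, 2.42 and 2.91, against 3.88, 4.00, 3.51 and 3.79 in water, with the third NM-203 array lowest and every NM-203 array below every water array; its change was -1.003 ± 0.13 (adjusted p = 4.15e-07). Other glycan enzymes that fell were Naglu (-0.91) of heparan sulfate breakdown, the glycogen-degrading acid alpha-glucosidase Gaa (-0.90), the hexosaminidase subunit Hexa (-0.66), the glucuronidase Gusb (-0.46), the sulfatase Arsb (-0.39) and the galactosidase Glb1 (-0.38). The remaining pair, Gla and Sgsh, changed by 0.27 and 0.11 and were not called.

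All 6 lipid-handling genes were called lower at this dose. The saposin precursor Psap changed by -0.84 ± 0.16, the acid lipase Lipa by -0.74 ± 0.10 and the acid ceramidase Asah1 by -0.66 ± 0.12. The cholesterol exporters Npc1 and Npc2 changed by -0.53 and -0.32, and the palmitoyl thioesterase Ppt1 by -0.39, with overlap between the groups for Ppt1. Among membrane proteins Lamp2, which serves chaperone-mediated autophagy and vesicle fusion, had levels of 5.13, 5.15, 5.08 and 5.32, against 6.15, 6.00, 5.94 and 6.08 in water. The groups lay well apart, with a change of -0.87 ± 0.10 (adjusted p = 2.29e-08). Laptm4a fell by 0.51 on the log2 scale, and the related abundant protein Lamp1 was not called (0.18 ± 0.14). Of the proton pump genes the accessory subunit Atp6ap1 (-0.77), Atp6v0d1 (-0.50) and Atp6v1a (-0.31) fell.

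The 2 members that rose with 5 µg/cm² of NM-203 were a membrane protein and a protease. Scarb2, the membrane receptor that carries glucocerebrosidase to lysosomes, had levels of 2.15, 2.07, 2.09 and 2.17 with NM-203 at 5 µg/cm², against 1.40, 1.43, 1.25 and 1.12 in water. Every NM-203 array was above every water array, and the change was 0.82 ± 0.09, 1.77-fold higher (adjusted p = 5.8e-09). The cysteine protease Ctss, best known from antigen-presenting cells, had levels of -3.80, -3.46, -3.09 and -2.81, against -3.60, -3.87, -4.73 and -4.03 in water. Its groups overlapped, since the first NM-203 array lay below the first water array, and its change was 0.77 ± 0.22 (adjusted p = 0.00591), which was not called without water replicate 3, the lowest water array.

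The direction of the changes at 5 µg/cm² was also read within slides that held both groups. Replicate 1 of this dose lay on slide 5, scanned on the second day, when no array of the first water group or of DE was scanned. Of the 23 called members, 23 moved the same way on slide 1 (2 NM-203 arrays and 1 water array) and 22 did so on slide 3 (1 array of each). The calls came from a fit that holds these same arrays. Such counts, here and below, describe direction within a slide and are not a separate test. Fibroblast markers moved too: 7 of 10 were called lower, and their summed linear level was 607 to 823 in NM-203 at 5 µg/cm², against 933 to 1062 in water. The macrophage marker sum was 16.0 to 21.2 in NM-203, against 19.7 to 28.5 in water. Sums without overlap were also those of the osteoclast markers, 0.978 to 1.28 in NM-203 against 2.28 to 2.77 in water, and of the endothelial markers, 0.136 to 0.210 against 0.227 to 0.308. The part of these markers in the lysosome values was not tested. When arrays were scaled on the median of the tested genes instead of the 75th percentile, which moved the median of all changes by 0.10, the count was 13 lower and 2 higher, and all gene names were split into 4416 higher and 4065 lower, in place of 4549 and 6191. Leaving out single arrays ended the calls of Ppt1 (without water replicate 2 or 4 or NM-203 replicate 3 or 4), Atp6v1a (without water replicate 1 or 2 or NM-203 replicate 1 or 2) and Arsb (without water replicate 3).

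**Figure D1:**
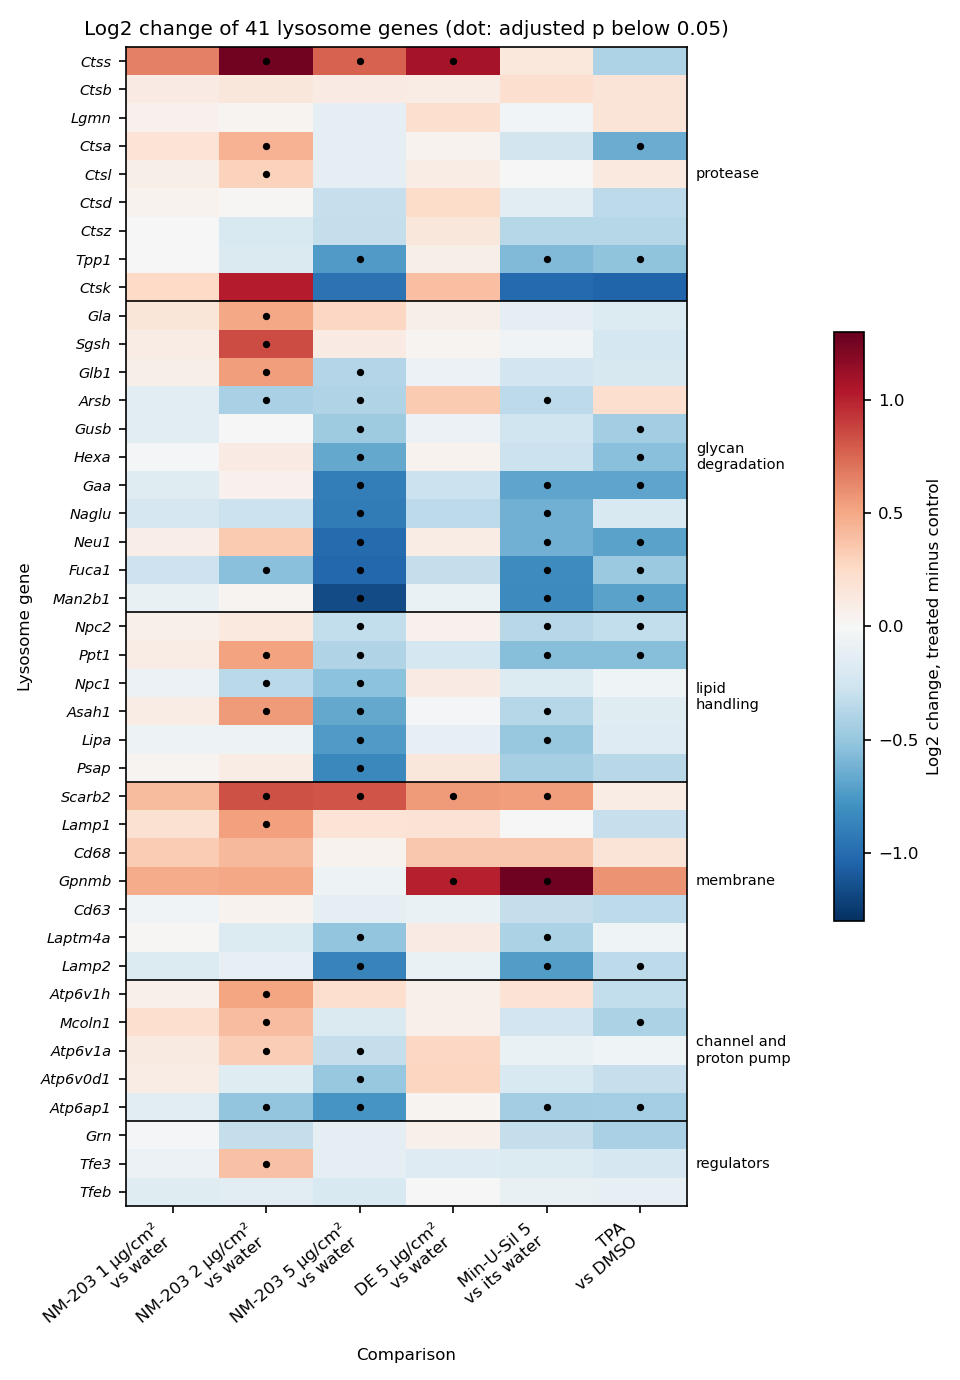
Log2 change of each lysosome gene (rows, grouped by role and ordered by the change with NM-203 at 5 µg/cm²) in 6 comparisons with a control (columns); red is higher and blue lower in treated cells, and a dot marks an adjusted p below 0.05. Blue cells with dots are 9 of 11 in the glycan block and 6 of 6 in the lipid block at 5 µg/cm² of NM-203. They are 6 of 11 and 4 of 6 at 20 µg/cm² of Min-U-Sil 5, and 6 of 11 and 2 of 6 with TPA. Scarb2 is red with dots for 4 particle treatments, and Ctsk was mostly not above background.

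With Min-U-Sil 5 glycan and lipid enzymes were again lower, and Gpnmb and Scarb2 were higher. Of the 41 genes 14 were called lower and 2 higher than in its own water group, with a median change of -0.26 against 0.04 over all gene names. The background was 25.6% called, 13.9% lower and 11.6% higher, and in the brightest 25% of gene names 20.2% lower and 21.9% higher, against 34.1% and 4.88% of members. Groups did not overlap for 20 members, and for 27.3% of all gene names. By role the falls were 6 of 11 glycan enzymes, 4 of 6 lipid genes, 2 of 7 membrane proteins, 1 of 9 proteases and 1 of 5 channel and pump genes. The genes lowered both here and by 5 µg/cm² of NM-203 were 14 of the 14 for Min-U-Sil 5 and 14 of the 21 for NM-203, in comparisons that use different water groups. The share of all gene names lower in both is not given here, so the overlap is a description only.

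Man2b1 stood at 2.30, 2.56, 2.37 and 2.57 with Min-U-Sil 5, against 3.47, 3.12, 3.17 and 3.35 in its water, and Fuca1 at 2.67, 2.60, 2.58 and 2.92, against 3.54, 3.37, 3.46 and 3.67. Neither gene's groups overlapped, and the changes were -0.83 ± 0.16 (adjusted p = 0.000128) and -0.82 ± 0.14 (adjusted p = 2.53e-05). Lamp2 stood at 5.12, 5.18, 5.35 and 5.01, against 6.03, 5.85, 5.604 and 6.07 in its water, a change of -0.72 ± 0.10 with every treated array below every control array. Gaa (-0.68), Neu1 (-0.63), Naglu (-0.63), Tpp1 (-0.57), Ppt1 (-0.56), Lipa (-0.49), Atp6ap1 (-0.45), Laptm4a (-0.41), Asah1 (-0.37), Npc2 (-0.36) and Arsb (-0.34) were also called lower. The membrane glycoprotein Gpnmb is known to be induced in macrophages with stressed or lipid-loaded lysosomes. It had levels of -1.93, -1.79, -1.76 and -1.73 with Min-U-Sil 5, against -2.87, -3.22, -3.48 and -2.72 in its water. Every treated array was above every control array, with a change of 1.27 ± 0.20, 2.41-fold higher (adjusted p = 1.05e-05). Scarb2 stood at 1.88, 1.98, 1.97 and 2.02, against 1.48, 1.33, 1.25 and 1.61 in its water, again without overlap, and changed by 0.55 ± 0.09 (adjusted p = 1.16e-05).

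Both groups of this comparison were scanned on the second day. All 16 called members moved the same way on slide 4 (3 Min-U-Sil 5 arrays and 2 water arrays) and on slide 5 (1 and 2 arrays). Slides 4 and 5 hold all arrays that gave these calls, so this is a description only. Fibroblast markers were called lower for 7 of 10 genes, with a summed level of 768 to 849 with Min-U-Sil 5, against 970 to 1388 in its water. The macrophage marker sum was 13.1 to 16.7 with Min-U-Sil 5, against 14.2 to 21.4 in its water, and the osteoclast marker sum 1.45 to 2.03, against 2.75 to 3.65, without overlap. The part of these lists was not tested. The call of Arsb was lost without any one of 6 of the 8 arrays, and that of Asah1 without water replicate 1 or 4 or Min-U-Sil 5 replicate 4.

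TPA, a soluble promoter with no particle, also lowered lysosome genes. Of the 41 genes 13 were called lower and 0 higher than in DMSO, with a median change of -0.32, where all gene names had -0.04. Lower calls made up 31.7% of members, against 6.78% of all gene names (11.7% called in either direction) and 10.8% of the brightest 25%, of which 7.83% were higher. Groups did not overlap for 16 members, and for 19.7% of all gene names. The falls were in 6 of 11 glycan enzymes, 2 of 9 proteases, 2 of 6 lipid genes, 2 of 5 channel and pump genes and 1 of 7 membrane proteins. Neu1 stood at 3.25, 3.36, 2.94 and 2.82 with TPA, against 3.76, 3.84, 3.74 and 3.82 in DMSO, and Man2b1 at 2.60, 2.85, 2.25 and 2.47, against 3.17, 3.34, 3.08 and 3.37. Both genes had every TPA array below every DMSO array, with changes of -0.70 ± 0.13 (adjusted p = 0.00046) and -0.70 ± 0.16 (adjusted p = 0.00244). Gaa stood at 5.45, 5.61, 5.28 and 5.17, against 5.85, 6.21, 6.04 and 6.17 in DMSO, a change of -0.69 ± 0.13 without overlap. Ctsa, the carboxypeptidase that protects Neu1 and Glb1 in a complex, fell by 0.65 and the calcium channel Mcoln1 by 0.41 on the log2 scale; neither was called at 5 µg/cm² of NM-203 (-0.12 and -0.19). Ppt1 (-0.55), Hexa (-0.54), Tpp1 (-0.53), Fuca1 (-0.48), Gusb (-0.45), Atp6ap1 (-0.44), Lamp2 (-0.34) and Npc2 (-0.32) made up the rest.

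In all, 9 of the 41 genes were lower with 5 µg/cm² of NM-203, with Min-U-Sil 5 and with TPA, each against its own control: Atp6ap1, Fuca1, Gaa, Lamp2, Man2b1, Neu1, Npc2, Ppt1 and Tpp1. The share of all gene names lower in all 3 is not given here, so nothing is read from the size of this overlap. For TPA the count was 8 without DMSO replicate 2 or without TPA replicate 4, 8 when only TPA and DMSO arrays were fitted, and 2 (Neu1 and Gaa) with scaling on the median. That scaling also turned the split of all gene names, to 972 higher and 775 lower, where the 75th percentile gave 1589 higher and 2203 lower. Single arrays ended the calls of Mcoln1 (without any one of 6 of the 8 arrays), Hexa and Lamp2 (each without DMSO replicate 2 or 4 or TPA replicate 3 or 4), Fuca1 (without DMSO replicate 1 or 2 or TPA replicate 4), Npc2 (without DMSO replicate 2 or TPA replicate 3 or 4) and Gusb (without TPA replicate 3). On slide 1, which held 2 TPA arrays and 1 DMSO array, all 13 called members moved the same way. Of the fibroblast markers 3 of 10 were lower with TPA, and their summed level was 881 to 962, against 1040 to 1166 in DMSO. The macrophage marker sum was 22.3 to 27.2 with TPA, against 20.2 to 24.8 in DMSO. The osteoclast marker sum did not overlap, with 1.80 to 2.18 with TPA against 2.64 to 2.74 in DMSO, and the part of the markers was not tested.

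**Figure D2:**
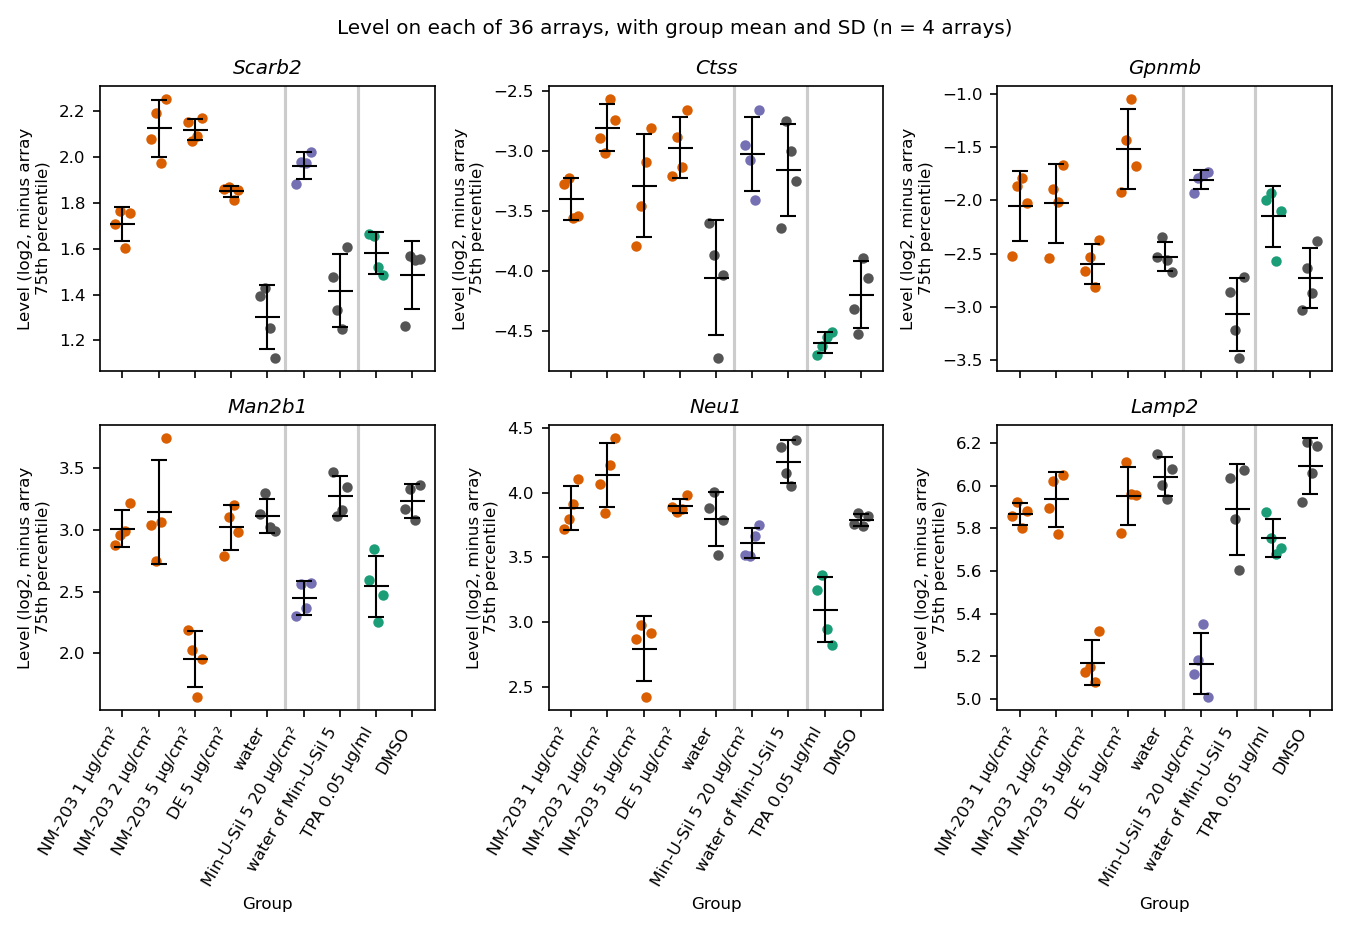
Level of 6 lysosome genes (vertical axis, log2 signal minus the 75th percentile of the array) on each of 36 arrays, by group (horizontal axis); points are arrays, and bars show the group mean and SD of 4 arrays. Scarb2 lies above its water group for each particle treatment, while Man2b1 and Neu1 are lower with 5 µg/cm² of NM-203, Min-U-Sil 5 and TPA.

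DE at 5 µg/cm², the same mass dose as the highest NM-203 dose, raised 3 members and lowered 0. This was 7.32% of the members, against 1.01% of all gene names called (0.557% higher) and 1.28% of the brightest 25% (0.849% higher); 5 members had groups without overlap, where 7.41% of all gene names did. Of the members, 10 of 41 had an unadjusted p below 0.05, and the median change was 0.07, where all gene names had -0.02. Ctss stood at -3.21, -2.89, -3.14 and -2.66 with DE, against -3.60, -3.87, -4.73 and -4.03 in water, a change of 1.08 ± 0.22 (adjusted p = 0.0094). Gpnmb stood at -1.92, -1.43, -1.05 and -1.67, against -2.53, -2.35, -2.56 and -2.68 in water, a change of 1.01 ± 0.20 (adjusted p = 0.00782). Neither gene's groups overlapped, though the call of Ctss was lost without water replicate 3. Scarb2 stood at 1.86, 1.87, 1.81 and 1.86 with DE, where the 4 arrays were close together, against 1.40, 1.43, 1.25 and 1.12 in water, a change of 0.55 ± 0.09 (adjusted p = 0.000925). All 3 moved the same way on slides 1, 2 and 3. None of the 3 passed the threshold when the arrays were scaled on the median, or when only DE and water arrays were fitted. The macrophage marker sum was 21.1 to 29.3 with DE, against 19.7 to 28.5 in water, and the fibroblast marker sum 937 to 1028, against 933 to 1062.

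At the shared dose of 5 µg/cm², NM-203 and DE differed for 27 of the 41 genes, 26 lower and 1 higher with NM-203; this is 26 genes without Ctsk, which was not well above background on most of these arrays. The groups did not overlap for 26 members, and for 28.4% of all gene names. Among all gene names 29.2% were called, 15.2% lower, and of the brightest 25% 18.9% were lower and 30.5% higher, against 63.4% and 2.44% of members. Neu1 (-1.103 ± 0.13), Gpnmb (-1.08 ± 0.20) and Man2b1 (-1.07 ± 0.16) were lower with NM-203. Neu1 stood at 2.87, 2.98, 2.42 and 2.91 with NM-203, against 3.89, 3.85, 3.88 and 3.98 with DE, and Gpnmb at -2.67, -2.53, -2.82 and -2.38, against -1.92, -1.43, -1.05 and -1.67. Neither gene's groups overlapped. Scarb2 was higher with NM-203 by 0.27 ± 0.09 (adjusted p = 0.0164), but not past the threshold with scaling on the median. All 27 moved the same way on slides 1 and 3, and scaling on the median left 14 calls, all of them lower, while all gene names were then split into 4343 higher and 2815 lower in place of 4541 and 4953. The fibroblast marker sum was 607 to 823 with NM-203, against 937 to 1028 with DE, and the osteoclast marker sum 0.978 to 1.28, against 2.14 to 2.47; their part was not tested. Single arrays ended the calls of Ctsk, Ctsl, Ctsd, Ctsz, Glb1 and Gusb.

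NM-203 at 1 µg/cm² changed 0 of the 41 genes by limma at an adjusted p below 0.05, against 0.0862% of all gene names (0.0431% higher and 0.0431% lower) and 0.0739% of the brightest 25% (0.0369% each way); 3 members had an unadjusted p below 0.05. Those 3 were Scarb2, Ctss and Gpnmb, with positive changes. Scarb2 stood at 1.71, 1.77, 1.60 and 1.76, against 1.40, 1.43, 1.25 and 1.12 in water, without overlap, and its change of 0.41 ± 0.09 had an adjusted p of 0.0503. Ctss stood at -3.28, -3.22, -3.56 and -3.55, against -3.60, -3.87, -4.73 and -4.03 in water, also without overlap (0.65 ± 0.22, adjusted p = 0.398). The change of Gpnmb was 0.48 ± 0.20 (adjusted p = 0.69). The 41 changes ran from -0.27 for Fuca1 to 0.65 for Ctss. Groups did not overlap for 4 members, where 5.64% of all gene names did so. These were Scarb2 and Ctss, which were higher, and Fuca1 and Lamp2, which were lower. Scarb2 was the 1 member called with normexp background correction, with a stricter filter on dim probes, with array weights or without water replicate 1. Replicate 4 of this dose was scanned on the second day, unlike the water arrays.

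NM-203 at 2 µg/cm² had all of its 4 arrays on slides scanned on the second day, whereas every water array belonged to the first day, so the groups never shared a slide. Against water 14 members were called higher and 4 lower, 34.1% and 9.76%. This was close to the background of the brightest 25% of gene names (32.8% higher and 9.28% lower); among all gene names 25% were called, 16.2% higher and 8.86% lower. Groups did not overlap for 17 members, and for 22.4% of all gene names. The water group of Min-U-Sil 5, scanned on the same day as the NM-203 arrays, differed from the first water group in 15 members (10 higher and 5 lower in the Min-U-Sil 5 water) and in 24.5% of all gene names. The macrophage marker sum was 10.6 to 18.1 with NM-203 at 2 µg/cm², against 19.7 to 28.5 in water, and the epithelial marker sum 0.542 to 0.898, against 0.400 to 0.520, both without overlap. Dose, scan day and water group cannot be told apart for these values.

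Against water, Ctss stood at -2.89, -3.02, -2.57 and -2.75 with NM-203 at 2 µg/cm², against -3.60, -3.87, -4.73 and -4.03, a change of 1.25 ± 0.22. Ctss was -3.65, -2.75, -3.00 and -3.25 in the Min-U-Sil 5 water, a range that overlaps the NM-203 arrays, and the change against that group was 0.35 ± 0.22 (adjusted p = 0.271). Sgsh, a sulfatase of heparan sulfate breakdown, stood at 5.58, 5.81, 5.43 and 5.02, against 4.71, 4.58, 4.501 and 4.65 in water and 4.95, 5.19, 4.497 and 5.25 in the Min-U-Sil 5 water. Its changes were 0.85 ± 0.15 and 0.49 ± 0.15, while a second, dim probe of Sgsh was lower at this dose (-0.79), so the gene's direction depends on the probe, and the fourth NM-203 array lay within the range of the Min-U-Sil 5 water. Scarb2 stood at 2.08, 2.19, 1.98 and 2.25, above every array of either water group, with changes of 0.82 ± 0.09 against water (adjusted p = 1.02e-07) and 0.71 ± 0.09 against the Min-U-Sil 5 water (adjusted p = 4.95e-06). Of the falls, Fuca1 stood at 3.29, 2.70, 3.44 and 3.63, against 3.77, 3.86, 3.91 and 3.72 in water, a change of -0.55 ± 0.14 that was -0.24 ± 0.14 against the other water group. Atp6ap1 stood at 2.58, 2.73, 2.72 and 2.64, against 3.26, 3.27, 3.00 and 3.20 in water, a change of -0.51 ± 0.10 that was -0.14 ± 0.10 against the other group. Arsb stood at -1.62, -1.51, -1.71 and -1.46, against -1.20, -1.14, -1.004 and -1.28 in water, a change of -0.42 ± 0.12 that turned to 0.09 ± 0.12 against the other group.

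Against the water scanned on the same day 4 members were called, all higher: Gpnmb (1.05 ± 0.20), Scarb2, Sgsh and the pump subunit Atp6v1a (0.34 ± 0.11). Of the 32490 gene names 15.6% were called, 2500 higher and 2560 lower, so a count this small is not set apart from the background. Of the 4 members, 3 (Scarb2, Sgsh and Atp6v1a) were called with either water group and in the same direction. The share of all gene names called with both is not given here, so nothing is read from this overlap. With slide as a block the comparison with the first water also gave 4 calls (Ctss, Sgsh, Scarb2 and Atp6v1a), and with NM-203 and water arrays alone in the fit it gave 5 (Ctss, Glb1, Sgsh, Scarb2 and Atp6ap1). The other members called against the first water were Asah1 (0.55), Glb1 (0.54), Lamp1 (0.53), Ppt1 (0.52), Atp6v1h (0.51), Gla (0.50), Ctsa (0.45), Mcoln1 (0.40), Tfe3 (0.39), Ctsl (0.30) and Npc1 (-0.35).

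**Figure D3:**
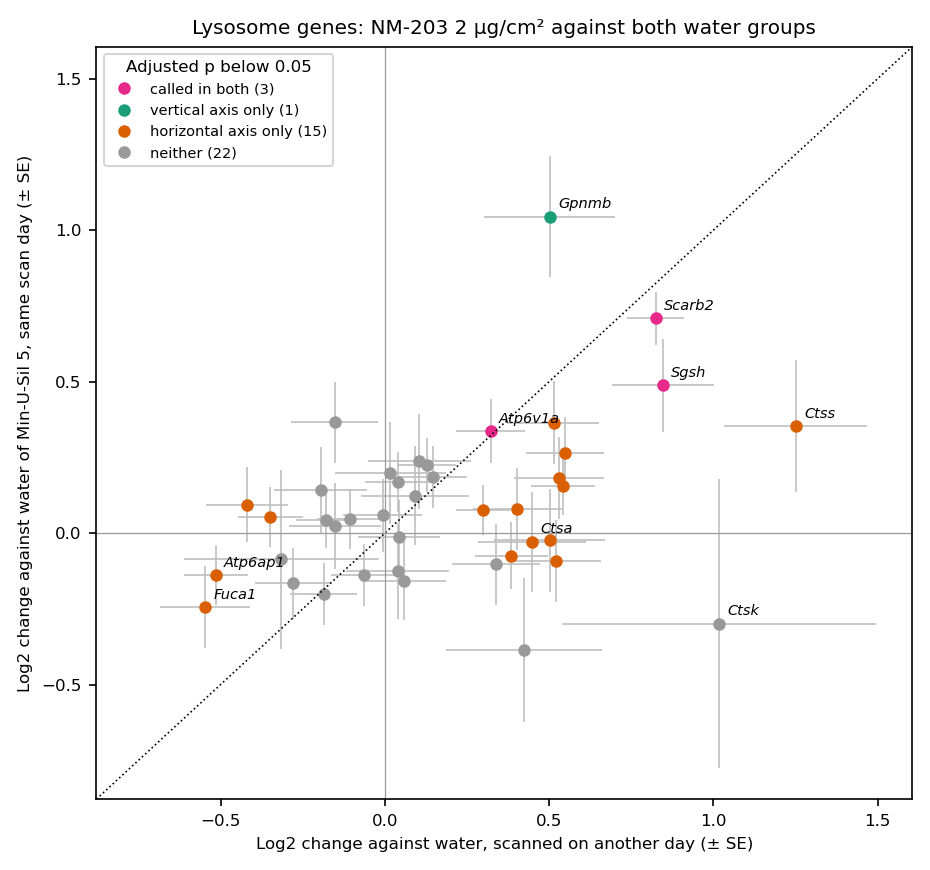
Log2 change of each lysosome gene with NM-203 at 2 µg/cm² against the first water group (horizontal axis) and against the water group of Min-U-Sil 5, scanned on the same day (vertical axis), each ± SE; the dotted line marks equal changes, and colours show where the adjusted p was below 0.05. The 15 genes called only on the horizontal axis lie near 0 or closer to it on the vertical axis, while Scarb2, Sgsh and Atp6v1a were called on both. The share of all gene names called on both is not given here.

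Side by side, the changes of Scarb2 were 0.41, 0.82 and 0.82 with 1, 2 and 5 µg/cm² of NM-203, 0.55 with DE and 0.55 with Min-U-Sil 5. NM-203 and DE share 1 water group, so their changes are not independent. With TPA Scarb2 stood at 1.67, 1.66, 1.52 and 1.49, against 1.26, 1.57, 1.55 and 1.55 in DMSO, overlapping groups with a change of 0.10 ± 0.09 (adjusted p = 0.565). The particle effect minus the TPA effect was tested itself, and these differences share the TPA and DMSO arrays. For Scarb2 the effect minus that of TPA was 0.72 ± 0.12 for 5 µg/cm² of NM-203 (adjusted p = 9.19e-05), 0.45 ± 0.12 for Min-U-Sil 5 (adjusted p = 0.0226) and 0.45 ± 0.12 for DE (adjusted p = 0.0503), the last not past the threshold. For Min-U-Sil 5 it was not called without its water replicate 2 or 3, DMSO replicate 2 or 4 or TPA replicate 4.

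For 5 µg/cm² of NM-203 against TPA, 9 of 41 members differed, 2 more positive and 7 more negative with the particle, beside 14.8% of all gene names called (7.74% more positive and 7.05% more negative). In the brightest 25% of gene names 18.8% were more positive and 7.58% more negative, against 4.88% and 17.1% of members. The 3 strongest in the negative direction were Naglu (-0.71 ± 0.17), Arsb (-0.62 ± 0.18) and Lipa (-0.57 ± 0.14), and Lamp2 (-0.53), Asah1 (-0.51), Npc1 (-0.47) and Laptm4a (-0.46) followed. Naglu stood at 3.18, 3.59, 3.18 and 3.51 with NM-203, against 4.30, 4.32, 4.10 and 4.39 in water, and at 4.01, 4.24, 4.14 and 3.87 with TPA, against 4.40, 4.21, 4.29 and 4.16 in DMSO. The NM-203 arrays all lay below water, whereas the TPA and DMSO arrays overlapped. Arsb changed by -0.39 with NM-203 and 0.22 with TPA, of which the first was called. Ctss was the most positive, at 1.17 ± 0.31 (adjusted p = 0.00812). It stood at -4.70, -4.63, -4.55 and -4.51 with TPA, against -4.31, -4.53, -3.89 and -4.06 in DMSO. These 2 groups overlapped, since the fourth TPA array lay above the second DMSO array, and the change was not called (-0.40 ± 0.22, adjusted p = 0.278). With scaling on the median, 2 of the 9 calls were left, Scarb2 and Ctss, and with array weights there were 16. The call of Asah1 was lost without any one of 9 arrays, and that of Npc1 without NM-203 replicate 1.

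**Figure D4:**
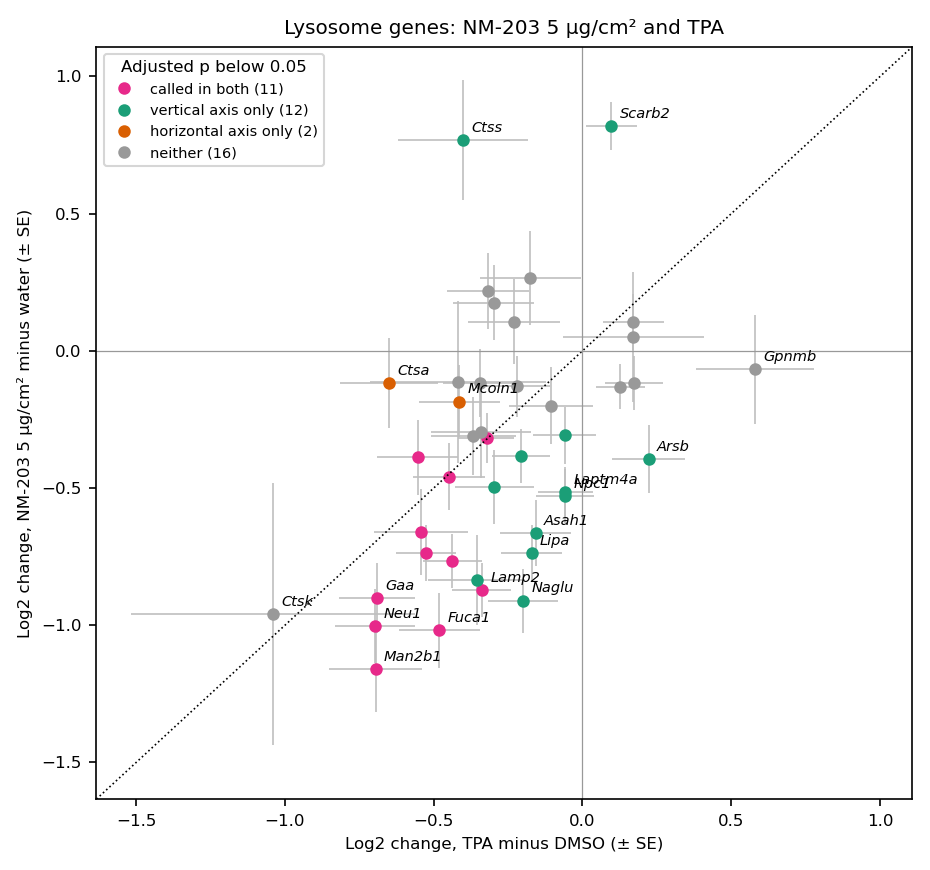
Log2 change of each lysosome gene with TPA against DMSO (horizontal axis) and with NM-203 at 5 µg/cm² against water (vertical axis), each ± SE; the dotted line marks equal changes, and colours show where the adjusted p was below 0.05. There were 11 genes called in both, all lower, and 12 called with NM-203 alone, among them Scarb2 and Ctss above the line. The share of all gene names called in both is not given here.

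For the other particles the differences from TPA were fewer, apart from 2 µg/cm² of NM-203. DE differed in 3 members, all more positive, where 1.78% of all gene names were called (0.612% more positive) and 2.34% of the brightest 25%: Ctss (1.49 ± 0.31), Neu1 (0.80 ± 0.19) and the tripeptidyl peptidase Tpp1 (0.60 ± 0.14). The count was 1 (Ctss) without TPA replicate 4 and 5 without TPA replicate 2. Min-U-Sil 5 differed in 1 member, Scarb2, where 5.89% of all gene names were called (3.33% more positive) and 10.3% of the brightest 25%, and NM-203 at 1 µg/cm² in 1, Neu1 (0.78 ± 0.19), where 1.62% were (0.643% more positive and 0.979% more negative) and 2.17% of the brightest 25%. For Min-U-Sil 5 the count was 0 without DMSO replicate 2 or 4 or TPA replicate 4 and 2 without TPA replicate 3 or Min-U-Sil 5 replicate 3 or 4. For NM-203 at 1 µg/cm² it was 0 without water replicate 3, NM-203 replicate 3 or 4, DMSO replicate 2 or 4 or TPA replicate 3 or 4, 2 without water replicate 2, NM-203 replicate 1 or 2 or DMSO replicate 1, and 3 without TPA replicate 2. NM-203 at 2 µg/cm² differed in 17 members, 16 more positive and 1 (Arsb, -0.64 ± 0.18) more negative, beside 10.7% of all gene names (8.44% more positive and 2.28% more negative) and, in the brightest 25%, 20.9% more positive and 3.16% more negative; without Ctsk there were 16. The most positive there were Ctss (1.65 ± 0.31) and Ctsa (1.098 ± 0.23), apart from Ctsk, which is described below. With the same-day water as control, an alternative chosen after seeing the data, 2 members were called (Npc2 and Scarb2). The share of all gene names called with that control is not given here, so nothing is read from this count.

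The 3 regulators were called in 1 comparison with a control, Tfe3 with 2 µg/cm² of NM-203. Tfeb stood at -0.35, -0.22, -0.25 and -0.48 with 1 µg/cm² of NM-203, -0.58, -0.04, -0.41 and -0.24 with 2, -0.27, -0.43, -0.42 and -0.35 with 5 and -0.03, -0.26, -0.12 and -0.29 with DE, against -0.11, -0.05, -0.30 and -0.21 in water. It stood at -0.35, -0.51, -0.82 and -0.07 with Min-U-Sil 5, against -0.19, -0.35, -0.11 and -0.71 in its water, and at -0.42, -0.03, -0.02 and -0.33 with TPA, against -0.02, 0.04, -0.03 and -0.36 in DMSO. No comparison with a control was called for this probe, and the 95% interval of the change at 5 µg/cm² of NM-203 was -0.49 to 0.09. Of 3 dimmer Tfeb probes, 2 were called lower there (-0.55 and -0.69), so the gene's result depends on the probe. Tfe3 stood at 3.43, 3.35, 3.30 and 3.74 with 1 µg/cm² of NM-203, 3.87, 4.00, 3.81 and 3.99 with 2, 3.58, 3.66, 3.18 and 3.19 with 5 and 3.32, 3.51, 3.27 and 3.35 with DE, against 3.47, 3.63, 3.46 and 3.56 in water. It stood at 3.77, 3.76, 3.87 and 3.85 with Min-U-Sil 5, against 4.04, 3.97, 3.88 and 4.08 in its water, and at 3.57, 3.34, 3.28 and 3.50 with TPA, against 3.63, 3.65, 3.42 and 3.89 in DMSO. The 2 µg/cm² arrays all lay above water, but their change against the Min-U-Sil 5 water was -0.07 ± 0.11, and a dim second probe was lower at that dose (-0.86). With Min-U-Sil 5 the groups did not overlap, and the change was not called (-0.18 ± 0.11, adjusted p = 0.269). The progranulin gene Grn was called in no comparison with a control.

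Lamp1 stood at 6.82, 6.96, 6.95 and 7.18 with 1 µg/cm² of NM-203, 7.08, 7.61, 7.18 and 7.35 with 2, 7.37, 7.01, 6.73 and 6.70 with 5 and 6.80, 6.93, 7.08 and 7.04 with DE, against 6.51, 7.01, 6.85 and 6.74 in water. It stood at 7.12, 7.10, 7.24 and 7.02 with Min-U-Sil 5, against 7.40, 7.04, 7.004 and 7.05 in its water, and at 6.75, 6.91, 6.61 and 6.66 with TPA, against 6.84, 7.23, 6.95 and 7.10 in DMSO. Apart from the 2 µg/cm² group its groups overlapped with their controls. Mcoln1 stood at 3.70, 3.74, 3.97 and 4.09 with 1 µg/cm² of NM-203, 3.84, 3.98, 4.04 and 4.38 with 2, 3.65, 3.68, 3.14 and 3.42 with 5 and 3.60, 3.84, 3.61 and 3.85 with DE, against 3.83, 3.82, 3.36 and 3.63 in water. It stood at 3.69, 3.83, 3.65 and 3.77 with Min-U-Sil 5, against 4.18, 3.83, 3.95 and 3.96 in its water, and at 3.42, 3.65, 3.15 and 3.29 with TPA, against 3.72, 3.87, 3.62 and 3.95 in DMSO. Mcoln1 was called with 2 µg/cm² of NM-203 and with TPA, in opposite directions.

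Of the classical cathepsins, Ctsb and Ctsd were called in no comparison with a control. The cysteine protease Ctsb stood at 4.71, 4.73, 4.74 and 5.04 with 1 µg/cm² of NM-203, 4.59, 4.83, 4.95 and 5.00 with 2, 4.97, 4.84, 4.69 and 4.71 with 5 and 4.77, 4.73, 4.70 and 4.97 with DE, against 4.60, 4.79, 4.56 and 4.83 in water. It stood at 4.87, 4.73, 5.00 and 4.92 with Min-U-Sil 5, against 4.75, 4.60, 4.51 and 4.77 in its water, and at 4.89, 5.18, 4.91 and 4.90 with TPA, against 4.74, 4.88, 4.74 and 4.84 in DMSO. The 95% interval of its change at 5 µg/cm² was -0.10 to 0.32, and with TPA its groups did not overlap, with a change of 0.17 ± 0.10 (adjusted p = 0.343). The aspartic protease Ctsd stood at 5.25, 5.68, 5.44 and 5.85 with 1 µg/cm² of NM-203, 5.13, 5.595, 5.41 and 5.98 with 2, 5.49, 5.46, 4.91 and 5.00 with 5 and 5.40, 5.85, 6.12 and 5.64 with DE, against 5.42, 5.63, 5.45 and 5.55 in water. It stood at 5.08, 5.34, 5.08 and 5.26 with Min-U-Sil 5, against 5.50, 5.21, 5.25 and 5.36 in its water, and at 5.36, 5.47, 4.95 and 5.29 with TPA, against 5.55, 5.83, 5.41 and 5.64 in DMSO. Ctsd differed between NM-203 and DE at 5 µg/cm² (-0.53 ± 0.17, adjusted p = 0.0146), with overlapping groups.

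Ctsk, the collagen-degrading cathepsin of osteoclasts, was well above background on 0 of 4 arrays in water, NM-203 at 1 and 5 µg/cm² and DMSO, on 1 of 4 with DE, Min-U-Sil 5 and TPA, and on 3 of 4 with NM-203 at 2 µg/cm² and in the Min-U-Sil 5 water. Its levels were -5.86, -6.26, -6.55 and -5.77 with 1 µg/cm² of NM-203, -5.35, -5.79, -5.51 and -4.75 with 2, -7.15, -7.53, -7.28 and -7.36 with 5 and -7.01, -5.54, -6.82 and -4.52 with DE, against -5.56, -6.69, -7.57 and -5.66 in water. They were -6.69, -5.99, -5.82 and -5.75 with Min-U-Sil 5, against -4.82, -5.63, -4.82 and -4.93 in its water, and -5.62, -7.48, -7.28 and -7.88 with TPA, against -6.36, -6.71, -5.79 and -5.23 in DMSO. The filter was met through 2 groups, both scanned on the second day. No fold is given apart from a bound: the 2 µg/cm² group was at least 1.13-fold higher than water, and that change was not called (adjusted p = 0.119). Ctsk is counted among the genes that differed between NM-203 and DE at 5 µg/cm² and between the effects of 2 µg/cm² NM-203 and TPA. In the first of these it was well above background on 0 and 1 of 4 arrays, and in the second mainly in the 2 µg/cm² group, through which it had passed the filter, so nothing is read from either call. The last of the fixed genes, Gpnmb, stood at -2.52, -1.86, -1.79 and -2.03 with 1 µg/cm² of NM-203 and -2.54, -1.89, -2.01 and -1.67 with 2, against -2.53, -2.35, -2.56 and -2.68 in water, and at -1.99, -1.93, -2.57 and -2.10 with TPA, against -3.03, -2.64, -2.87 and -2.39 in DMSO. With TPA its change was 0.58 ± 0.20 (adjusted p = 0.0565). Across the 6 comparisons with a control, 9 members were called in none: Cd63, Cd68, Ctsb, Ctsd, Ctsk, Ctsz, Grn, Lgmn and Tfeb.

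**Figure D5:**
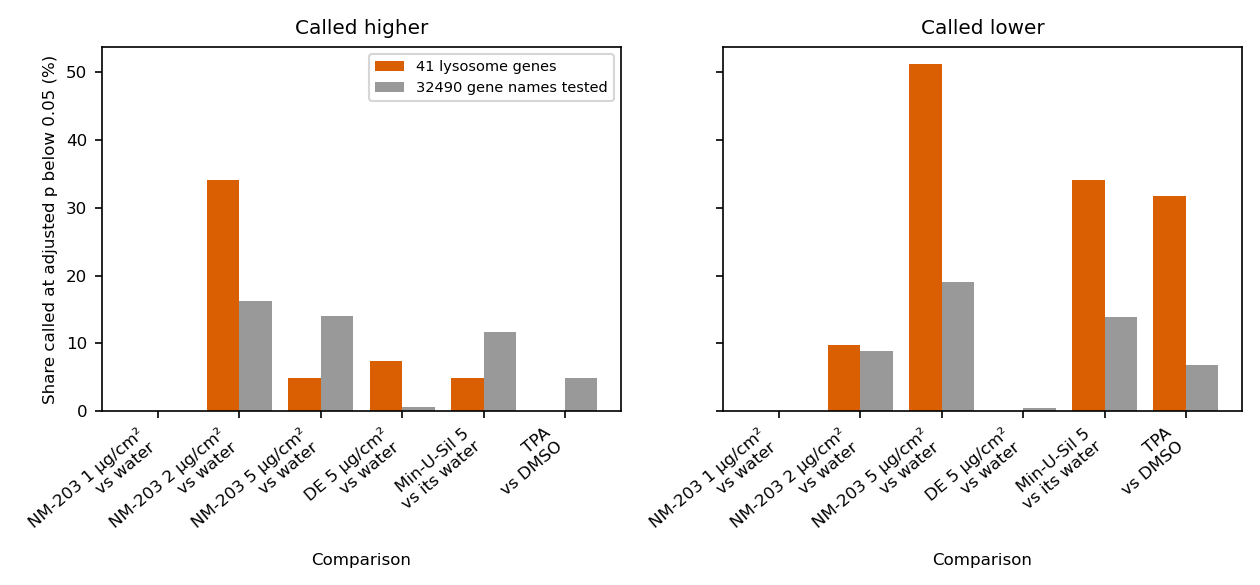
Share of the 41 lysosome genes (orange) and of the 32490 gene names tested (grey) called higher (left) or lower (right) in 6 comparisons with a control (horizontal axis), in percent at an adjusted p below 0.05. With 5 µg/cm² of NM-203, Min-U-Sil 5 and TPA, 51.2%, 34.1% and 31.7% of lysosome genes were lower, against 19.1%, 13.9% and 6.78% of gene names. In the brightest 25% of gene names, which are not drawn, 22.8%, 20.2% and 10.8% were lower.

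Members were also split by the promoter element, as a description with no test. With 5 µg/cm² of NM-203, 5 of 13 members with CACGTG were lower and 0 higher (median -0.19), against 14 of 24 lower and 2 higher without it (median -0.43). With Min-U-Sil 5 it was 2 of 13 lower and 0 higher (median -0.14), against 11 of 24 lower and 2 higher (median -0.37). With TPA 3 of 13 were lower (median -0.23), against 10 of 24 (median -0.36). Over all gene names 19.1%, 13.9% and 6.78% were lower with these 3 treatments, and 14%, 11.6% and 4.89% higher. With 2 µg/cm² of NM-203 against the first water, 8 of 13 with the element were higher and 0 lower (median 0.32), against 4 higher and 3 lower of 24 (median 0.04). The limits of scan day and water group given above hold here too. Against the water scanned on the same day, Sgsh and Atp6v1a were the members with the element that were called. Between the 2 water groups, members with the element differed too. Ctsa, Ctsl, Gla and Glb1 were called higher in the Min-U-Sil 5 water, and Atp6v0d1 lower. The 8 promoters shown above include members that fell at 5 µg/cm² (Atp6v1a, Gaa and Naglu) and members that did not pass the test (Lamp1, Mcoln1, Gla, Sgsh and Ctsd). Over all genes with a promoter entry, the median change at 5 µg/cm² was 0.05 for 1430 genes with the element and 0.02 for 12700 without. At 2 µg/cm² against the first water these medians were 0.16 and 0.15, so over all genes those with the element hardly differed from the rest.

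Other genes of the lysosome, from 8 lists with 136 genes of which 131 were tested, were read from lists chosen with earlier results known. With 5 µg/cm² of NM-203, 51 were lower and 12 higher (38.9% and 9.16%), where all gene names had 19.1% and 14%. With Min-U-Sil 5 it was 30 and 7 (22.9% and 5.34%), where all had 13.9% and 11.6%, and with TPA 25 and 3 (19.1% and 2.29%), where all had 6.78% and 4.89%. In the brightest 25% of gene names 22.8%, 20.2% and 10.8% were lower with these 3 treatments. With DE or 1 µg/cm² of NM-203 the counts were 0 and 0 by limma (0.449% lower and 0.557% higher over all gene names with DE), where 16 and 5 had an unadjusted p below 0.05. Of 26 further hydrolases 18 fell with 5 µg/cm² of NM-203 and 0 rose, while 11 fell with Min-U-Sil 5 and 5 with TPA, to be read against the same shares. Among them the hyaluronidase Hyal1 changed by -1.65 ± 0.18 with NM-203, the sulfatase Arsa by -0.96 ± 0.13 with Min-U-Sil 5 and the fucosidase Fuca2 by -0.48 ± 0.10 with TPA, all called.

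Of 21 tested genes of enzyme sorting and vesicle fusion, 5 fell with 5 µg/cm² of NM-203, 3 with Min-U-Sil 5 and 3 with TPA. Over all gene names 19.1%, 13.9% and 6.78% were lower, and in the brightest 25% 22.8%, 20.2% and 10.8%. Counts this small are not set apart from the background, and 0 of the 21 rose. The receptor that carries mannose 6-phosphate tagged hydrolases to lysosomes, Igf2r, had the largest change of this list with NM-203 and Min-U-Sil 5. It fell by 2.79 with 5 µg/cm² of NM-203 (adjusted p = 1.36e-13) and by 1.97 with Min-U-Sil 5 (adjusted p = 3.52e-10) on the log2 scale. With TPA its change of -0.38 was not called by limma (adjusted p = 0.155). In the same list Gnptg, a subunit of the enzyme that starts that tag, changed by -0.80 with NM-203, -0.54 with Min-U-Sil 5 and -0.58 with TPA, all called. Of 15 tested genes of nutrient sensing at the lysosome, 5 fell and 2 rose with NM-203, 4 and 0 with Min-U-Sil 5, and 5 and 0 with TPA. These counts are to be read against the same shares. The TFEB relative Mitf was lower with all 3 treatments, with changes of -0.99, -0.93 and -0.89. Flcn, which controls the entry of these factors into the nucleus, changed by -0.72, -0.44 and -0.66, all called.

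Of 10 tested genes that respond to damaged lysosomes, 5 rose and 1 fell with 5 µg/cm² of NM-203, 3 rose and 0 fell with Min-U-Sil 5, and 3 rose and 0 fell with TPA. Over all gene names 14%, 11.6% and 4.89% were higher, and in the brightest 25% 29.8%, 21.9% and 7.83%, so that counts this small are not set apart from the background. The galectin Lgals8, which binds sugars exposed on broken vesicles, changed by 0.64 ± 0.11 with NM-203, 0.61 ± 0.11 with Min-U-Sil 5 and 0.46 ± 0.11 with TPA. Plaa, which takes part in clearing damaged lysosomes, had the largest change among the 5 called higher with NM-203 (0.88), and Trim16 fell (-0.67). Lgals3, another galectin, was higher with NM-203 (0.58), Min-U-Sil 5 (0.52) and TPA (0.54). Of 19 tested autophagy genes, 2 rose and 8 fell with NM-203 at 5 µg/cm², and 2 rose and 3 fell with Min-U-Sil 5. Over all gene names 19.1% and 13.9% were lower, beside the shares called higher given above. The 19 changes ran from -0.93 to 0.78 with NM-203 and from -0.64 to 0.58 with Min-U-Sil 5. The most positive was the autophagy receptor Sqstm1, at 0.78 ± 0.17 and 0.58 ± 0.17, both called. The iron transporter Slc11a2 was the 1 of 24 other membrane genes that rose with 5 µg/cm² of NM-203 (0.61), against 10 that fell, where 14% of all gene names were higher and 19.1% lower.
With 2 µg/cm² of NM-203 against the first water 35 of the 131 were higher and 8 lower (26.7% and 6.11%). Over all gene names 16.2% were higher and 8.86% lower, and in the brightest 25% 32.8% and 9.28%. The brightness of the 131 as a set is not given here, and the same limits of scan day and water group hold as for the members.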

How the data were processed

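RNA from 36 samples of Bhas 42 cells was hybridised to Agilent 1-colour arrays with 62976 spots each, of which 59305 were not controls. The deposited spot intensity is the background-subtracted processed signal of Agilent Feature Extraction 11.0.1.1, per the file headers. A deposited table holds log2 values of the same arrays from the authors, in 56745 probes with column medians from -0.255 to 0.271 and with scale steps and centring not stated; it was used as an alternative only. Of the 36 arrays, 33 correlated best with their own column of it, and 3 Min-U-Sil 5 arrays did so with another Min-U-Sil 5 column.

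Here, log2 of the processed signal was taken, the array's 75th percentile (531 to 1542 intensity units) subtracted, and outlier spots (74 to 380 per array) left out. Precision is limited by the number of arrays. Of 56605 probes 32994 were named through their RefSeq accession (22911 genes) and 23611 kept the file's name. A probe passed if 3 or more of the 4 arrays of any group had it well above background (40677 passed), and the brightest one per gene name was used, which left 32490. Probes well above background made up 55.1% to 76.2% per array, and 0 spots were saturated.

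Group means over all 36 arrays were fitted with limma 3.58.1 in R 4.3.3 (lmFit, eBayes), for 12 comparisons, with Benjamini-Hochberg adjustment. The script was tested on simulated data. Alternatives were normexp (offset 50, on median spot and background signals, since mean spot signals were not used here) with quantile normalization, scaling on the median, the deposited table, other filters and probe rules, fits of the compared groups alone, slide or replicate number as a block, array weights, another water group and single arrays left out.

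The members and all gene lists were chosen with earlier results of these data known. The comparison with the brightest 25% of gene names was added after seeing the data. Every member is accounted for; values per array are given for the 3 largest calls in each direction of the comparisons between 2 groups and for Tfeb, Tfe3, Lamp1, Ctsb, Ctsd, Ctsk, Ctss, Gpnmb and Mcoln1, and up to 2 called genes in each direction were named from other lists, of which some are not reported here. Figures were drawn with matplotlib 3.10.9.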

Additional observations from a re-analysis of the deposited data

Results flagged for a closer look

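In 4 of 113 sets of 4 arrays examined, 1 array stood apart from the other 3 by more than Dixon's 95% limit, and chance alone gives about 1 in 20. Ctsb was 5.04 in replicate 4 of 1 µg/cm² NM-203, against 4.71 to 4.74 in the other 3 arrays. That array was scanned on the second day and the other 3 on the first. Ctsb was also 5.18 in TPA replicate 2, against 4.89 to 4.91. Ctsk was -5.63 in replicate 2 of the Min-U-Sil 5 water, against -4.93 to -4.82, and was not well above background in every array of that group. Lamp1 was 7.40 in replicate 1 of the same water group, against 7.004 to 7.055. The particle effect differed from the TPA effect, by a test of the difference itself, for 1 lysosome gene with 1 µg/cm² of NM-203, 17 with 2 µg/cm², 9 with 5 µg/cm², 3 with DE and 1 with Min-U-Sil 5. The count of 17 (16 without Ctsk, which was dim) comes from arrays scanned on another day than their water group.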

How the results depend on the processing

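Scarb2 was called in each of 19 alternatives run for 2 µg/cm² of NM-203 and in each of 18 for 5 µg/cm² and for Min-U-Sil 5, and Man2b1, Fuca1, Neu1, Naglu, Gaa and Lamp2 were called lower in each of 18 for both of the last 2. Over called members and alternatives, 2277 of 2639 values kept direction and call, 353 lost the call and 9 turned. Scaling on the median gave 7 calls for 2 µg/cm² of NM-203, 15 for 5 µg/cm², 0 for DE, 2 for TPA and 14 for NM-203 against DE, and 0, 2, 2, 0 and 0 for the differences from TPA of 1, 2 and 5 µg/cm² NM-203, DE and Min-U-Sil 5. It shifted the median of all changes by 0.10 for 5 µg/cm² and 0.13 for NM-203 against DE. It split all gene names into 21 higher and 6 lower for DE (181 and 146 at the 75th percentile), 0 and 1 for 1 µg/cm² (14 and 14) and, for differences from TPA, 37 and 22 for 1 µg/cm² (209 and 318), 177 and 247 for 2 µg/cm² (2743 and 740), 42 and 28 for DE (199 and 380) and 196 and 233 for Min-U-Sil 5 (1083 and 832). Normexp with quantile normalization gave 1 call for 1 µg/cm² and, against TPA, 2 for 1 µg/cm², 6 for DE and 2 for Min-U-Sil 5; its splits were 14 and 24 for 1 µg/cm² and, against TPA, 1994 and 972 for 2 µg/cm² and 282 and 349 for DE. The stricter filter gave 1 call for 1 µg/cm², and 2 each for 1 µg/cm² and Min-U-Sil 5 against TPA. The mean over probes gave 9 for 2 µg/cm² against TPA. Fits of the compared groups alone gave 5 for 2 µg/cm², 0 for DE, 8 for TPA, and 0 for 1 µg/cm² and Min-U-Sil 5 against TPA, with fewer arrays to estimate the spread. Slide as a block gave 4 for 2 µg/cm² and, against TPA, 0 for 1 µg/cm², 1 for 2 µg/cm² and 0 for Min-U-Sil 5. Array weights gave 1 for 1 µg/cm² and, against TPA, 6 for 1 µg/cm², 16 for 5 µg/cm², 6 for DE and 4 for Min-U-Sil 5. The water of Min-U-Sil 5 as control gave 4 for 2 µg/cm² and, as an alternative chosen after seeing the data, 2 against TPA. Values that turned were Tfe3 with 2 µg/cm² (-0.24, and -0.12 against TPA, as a mean over probes), Ctsa (-0.14 with slide as a block) and, against the Min-U-Sil 5 water, Ctsa (-0.0284), Gla (-0.0234), Arsb (0.0939), Npc1 (0.0544), Ppt1 (-0.0916) and Tfe3 (-0.0738). Beyond the choice of probe, control or array set named here, the cause was not tested. Without single arrays the counts ran from 0 to 1 for 1 µg/cm², 15 to 19 for 2 µg/cm², 21 to 22 for 5 µg/cm², 2 to 3 for DE, 14 to 17 for Min-U-Sil 5, 8 to 13 for TPA and 21 to 26 for NM-203 against DE, and against TPA from 0 to 3, 14 to 18, 8 to 10, 1 to 5 and 0 to 2 in the order above. Same-numbered arrays of a treatment and its control had correlations of deviations from -0.60 to 0.33, and from 0.01 to 0.24 for TPA and DMSO. Arrays with different numbers were not compared, so whether the replicate numbers pair the samples was not tested. With the replicate number as a block the counts were 0, 19, 23, 3, 16, 14 and 27, with 18 for 2 µg/cm² against TPA. Dim members were few, so signal over background limited Ctsk alone.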

Other observations

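For 14 members more than 1 probe passed the filter, and the brightest was used. With 2 µg/cm² of NM-203 against water the probes of Sgsh changed by 0.85 and -0.79, and those of Tfe3 by 0.39 and -0.86, with each of the 4 changes called. A second Gaa probe changed by -1.31 there, against 0.06 for the brighter one, and a second Grn probe by 0.76, against -0.31. The Min-U-Sil 5 water and the first water group, both untreated by particles, differed in 15 members, among them Ctss (0.90), Cd68 (0.81) and Gpnmb (-0.54), whereas DMSO and the first water group differed in 0 members and in 0% of all gene names by limma (1 member and 2.07% of gene names had an unadjusted p below 0.05).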
